A study of Rattus norvegicus with 12 samples.

Results

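Bile acid synthesis turns cholesterol into bile acids in the liver, and 10 genes of the pathway and its control were followed here in cultured rat hepatocytes. The genes were taken by name: Cyp7a1, Cyp8b1, Cyp27a1, Cyp7b1, Cyp39a1, Nr1h4, Nr0b2, Baat, Slc27a5 and Akr1d1. All 10 were on the array, with 11 of its 31042 tested probe sets, since Akr1d1 had a brighter and a dimmer one. The cells were primary hepatocytes of Wistar rats, purified on Percoll and used the day after isolation. There were 4 groups of 3 arrays. Cells given rat interferon alpha (250 U/ml), a cytokine of the antiviral defence, for 6 h stood against cells kept without it for 6 h, and cells given it for 3 h against cells kept without it for 3 h. The titles call the arrays biological replicates 1 to 3 in every group. They do not say whether these were separate animals, so p-values measure the spread between these samples.

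In the classical route Cyp7a1, cholesterol 7alpha-hydroxylase, takes the first and rate-limiting step, and Cyp8b1 adds the hydroxyl group that makes cholic acid. In the alternative route Cyp27a1 oxidises the side chain, and Cyp7b1 then hydroxylates the oxysterol, while Cyp39a1 acts on 24-hydroxycholesterol. Akr1d1 reduces the ring, Slc27a5 activates the acid with coenzyme A, and Baat joins it to taurine or glycine. Bile acids bind the nuclear receptor Nr1h4 (FXR), which induces Nr0b2 (SHP), and SHP holds back Cyp7a1 and Cyp8b1 partly through the receptor Nr5a2 (LRH-1). Inflammatory cytokines and culture outside the liver are known to lower Cyp7a1.

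Values are log2 RMA values, on which a difference of 1 is a doubling, and levels of different probe sets cannot be set against each other. The response to interferon served as a check of the labels. At 6 h Cmpk2, a nucleotide kinase beside viperin, averaged 4.90 log2 higher with interferon alpha and Ifit3, an antiviral RNA-binding protein, 4.49 log2 higher (limma adjusted p = 0.00325 for both). The antiviral genes Mx1, Rsad2 and Isg15 were 4.33, 3.14 and 2.68 log2 higher (adjusted p = 0.00365, 0.00312 and 0.00476). Hepatocyte markers were bright, with Alb between 14.61 and 14.71 and Hnf4a between 11.06 and 11.55 in all 12 arrays. Of 25 markers of other liver and blood cells, the monocyte receptor Cd14 averaged 11.90 and the cholangiocyte marker Epcam 11.28, and the remaining ones at most 6.95 (Cd68). The cholangiocyte keratins Krt7 and Krt19 averaged 3.93 and 3.47. RNA from bulk culture cannot tell fewer cells from less RNA per cell.

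Promoters are shown for the members on which Nr5a2 and Nr0b2 are known to act or to be acted upon, as far as the RefSeq promoter table (build GRCr8) holds them; 6 of the 10 genes matched, and Cyp7a1, Cyp7b1, Nr1h4 and Akr1d1 are named only. The 250 bases before the start of Cyp8b1 and of Nr0b2 are printed 5′ to 3′, with the core of the Nr5a2 half-site, CAAGG on either strand, in capitals.
Cyp8b1, chr8:130457593-130457842, minus strand: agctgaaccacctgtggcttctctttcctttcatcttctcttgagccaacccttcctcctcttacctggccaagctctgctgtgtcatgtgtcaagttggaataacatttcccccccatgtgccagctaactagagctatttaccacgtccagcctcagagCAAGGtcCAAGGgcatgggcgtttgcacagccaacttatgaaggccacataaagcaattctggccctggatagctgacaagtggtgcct
Nr0b2, chr5:151062910-151063159, plus strand: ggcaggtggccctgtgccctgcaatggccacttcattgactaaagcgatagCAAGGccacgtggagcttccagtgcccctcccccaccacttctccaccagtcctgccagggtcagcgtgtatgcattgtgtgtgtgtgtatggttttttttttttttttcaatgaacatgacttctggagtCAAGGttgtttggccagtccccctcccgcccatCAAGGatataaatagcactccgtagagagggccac
In Cyp8b1 the core lies 89 and 82 bases before the start, and in Nr0b2 it lies 199, 68 and 35 bases before it. The core is short: 46.3% of 33469 rat promoters of this length hold it, and so did 3 of the 6 members, the third being Cyp27a1. With 1 more base, TCAAGG, it was in Nr0b2 alone of the 6 and in 12.6% of all promoters. These matches describe letters and not binding.

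Cyp7a1 varied more across the 12 arrays than any other tested probe set except that of Mx2, an interferon-induced GTPase named after its values were seen. At 6 h, replicates 1, 2 and 3 gave 9.95, 9.20 and 4.15 with interferon alpha, against 10.11, 10.44 and 4.68 in control cells. At 3 h they gave 11.57, 11.39 and 7.97 with interferon alpha, against 11.57, 11.71 and 8.12 in control cells. The samples of replicate 3 were the lowest of every group, and the treated and control arrays overlapped at both times. Between the highest and the lowest array lay 7.56 log2, a 189-fold difference, while the median range of all probe sets was 0.53 log2. The lowest value, 4.15, is close to the 25th percentile of each array, which was 3.84 to 3.93. Background takes an unknown share of the signal there, which limits what a fold against it can say.

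**Figure D1:**
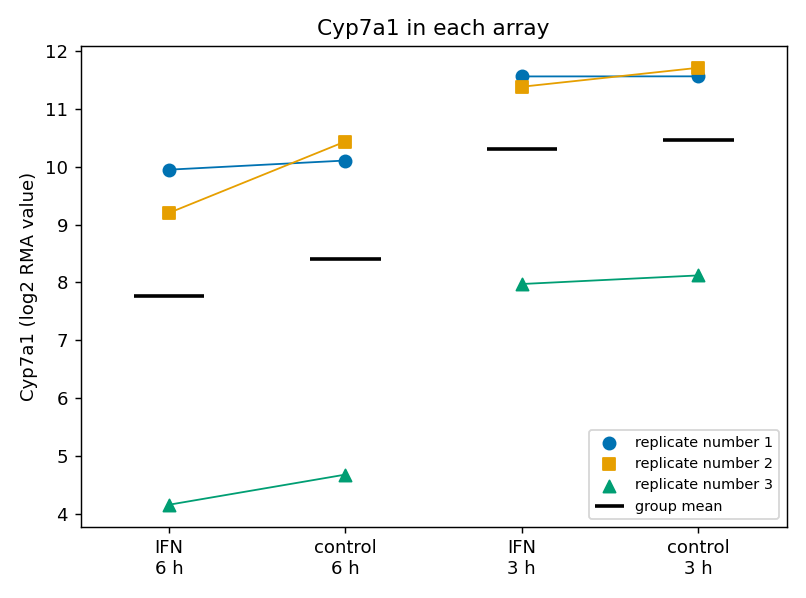
Cyp7a1 level (log2 RMA value, vertical axis) in each of the 12 arrays by group, with lines joining interferon alpha (IFN) and control arrays of the same replicate number and time, and black bars for group means. Replicate 3 lies lowest in every group, at 4.15 and 4.68 at 6 h, and all 3 numbers are lower at 6 h than at 3 h.

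For 9 of the 11 member probe sets the replicate number took a larger share of the variation than time or treatment did. How many of all probe sets do so was not counted, so this is no result about the members. Replicate number has 3 levels against 2 each for time and treatment, which favours it. For Slc27a5 and the dimmer Akr1d1 probe set, time took the largest share. For the brighter Akr1d1 probe set, replicate number took 15.9%, less than time by replicate number (43.8%). Averaged over its 4 arrays, replicate 3 had a Cyp7a1 level of 6.23, against 10.80 for replicate 1 and 10.69 for replicate 2, a 23.7-fold gap between the ends. Replicate number took 73.5% of the sum of squares of Cyp7a1 over the arrays, time 21.5% and interferon alpha 0.647%. For the median of all probe sets the shares were 28.5%, 8.35% and 3.59%. The other members did not all follow Cyp7a1 in the order of the replicates. Cyp8b1 was highest in replicate 2, with a mean of 10.86 against 9.42 in replicate 1 and 9.44 in replicate 3, and replicate number took 91.8% of its sum of squares. Nr1h4 and its target Nr0b2 were both highest in replicate 1, at 8.95 and 5.50, and lowest in replicate 3, at 7.88 and 4.35. Nr0b2, the repressor of Cyp7a1, had its lowest replicate mean in the same replicate number as Cyp7a1, but in control cells at 3 h replicate 3 (4.72) lay above replicate 2 (4.51). Its level averaged 4.84, under the median of each array, so background limits these differences too. Baat and Cyp39a1 were highest in replicate 2 and lowest in replicate 3, with Baat at 11.39 and 10.62. Slc27a5 and Cyp27a1 differed little, their replicate means spanning 0.14 and 0.22 log2. No test of the replicate numbers was made.

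**Figure D2:**
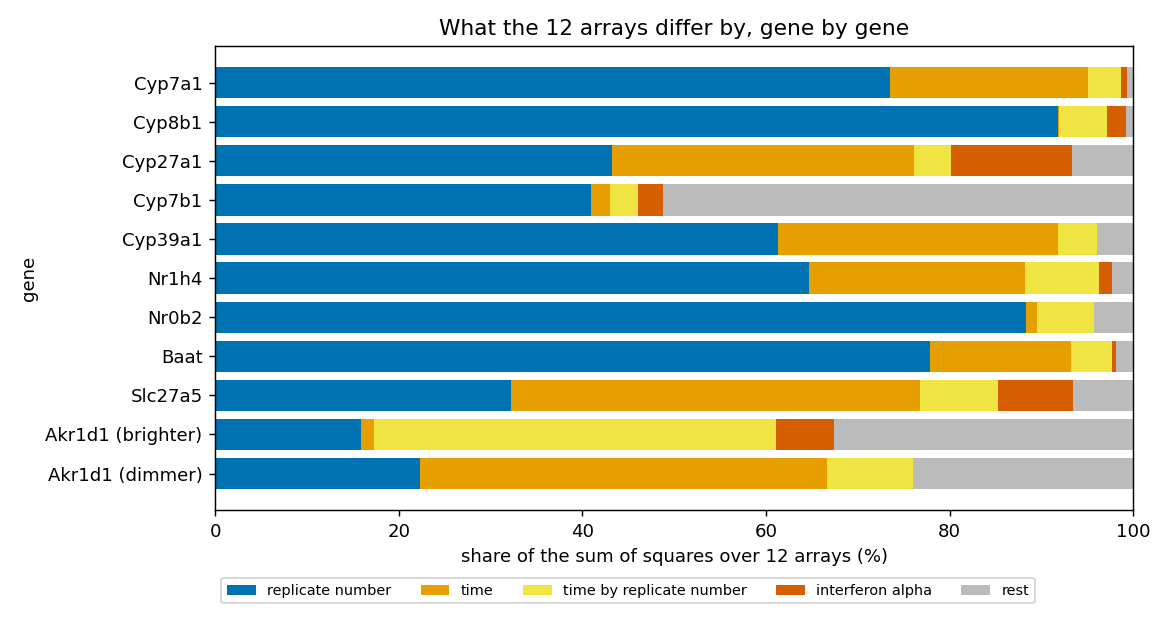
Share of the sum of squares over the 12 arrays (percent, horizontal axis) that goes with replicate number, time, their combination, interferon alpha and the rest, for each member; the bars add to 100. Replicate number holds 91.8% for Cyp8b1 and 73.5% for Cyp7a1, while interferon alpha holds 13.2% for Cyp27a1, its largest share among the members.

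Some other measures also differed between the replicate numbers. The summed linear signal of 9 hepatocyte markers had a mean log2 of 16.65 in replicate 3, against 16.77 in replicate 1 and 16.78 in replicate 2. The summed signal of 6 Kupffer cell and macrophage markers, led by Cd14, was 12.28 in replicate 1 against 11.83 and 11.89 in replicates 2 and 3. That of 3 cholangiocyte markers, led by Epcam, was 10.86 in replicate 1 against 11.64 and 11.37. Erythroid markers gave 7.43 against 6.54 and 6.59, and endothelial markers 6.63 against 5.98 and 5.98. Stellate cell and fibroblast markers gave 7.35, 7.23 and 7.37 in replicates 1 to 3. Lymphocyte markers gave 5.64, 5.59 and 5.68, and neutrophil markers 4.66, 4.47 and 4.58. Their part in the differences between replicate numbers was not tested.

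Cyp7a1 was lower at 6 h than at 3 h in every replicate, and over all 31042 probe sets no other had a larger mean fall in control cells. In control cells the difference was -1.46, -1.28 and -3.45 log2 in replicates 1 to 3, and in interferon-treated cells -1.61, -2.18 and -3.82. These are falls of 2.74, 2.42 and 10.9 times in control cells. The control means were 8.41 ± 3.24 at 6 h and 10.47 ± 2.03 at 3 h (SD, n = 3), and the difference was within the spread between replicates in the fit without a block (-2.06 ± 1.88 log2 SE, adjusted p = 0.802). With the replicate number as a block, Cyp7a1 fell by 2.06 ± 0.43 log2 (adjusted p = 0.0156, 95% interval -3.00 to -1.12). The fold of the mean was 4.17. That SE comes from a spread pooled over all 4 groups, while the 3 control differences had an SD of 1.20 log2. It can therefore understate the error of this change. Cyp7a1 was the 1 member probe set of 11 called with the block, and 0 of 11 were called without it. Over all probe sets 8.15% were called with the block and 0.190% without it. The blocked adjusted p was 0.0524 without replicate 1, 0.0656 without replicate 2 and 0.0386 without replicate 3. Without a block, dropping replicate 3 from the 6 h controls alone gave -0.19, since its low 3 h control value of 8.12 stayed in. Dropping that 3 h value instead made the fall larger, as it was the lowest of its group. The complete pairs of replicates 1 and 2 differed by -1.46 and -1.28 log2.

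Several other members were lower at 6 h as well. Averaged over treated and control cells with the block, a comparison added after the data were seen, 6 of the 11 member probe sets passed, against 18.4% of all. This fit counts treated and control arrays of the same number and time as separate, although their deviations correlated at 0.651 to 0.829. Its SE can therefore understate how far the time difference varied between replicate numbers. For Cyp7a1, time by replicate number took 3.64% of the sum of squares and the rest 0.677%. Cyp7a1 fell by 2.30 ± 0.30 log2 (adjusted p = 0.000467, and at most 0.00754 without any 1 replicate number). Nr1h4, the bile acid receptor, fell by 0.57 ± 0.12 (0.00692), Cyp39a1, the oxysterol hydroxylase, by 0.35 ± 0.07 (0.00465) and Baat, the conjugating enzyme, by 0.28 ± 0.07 (0.0136). Cyp27a1, which opens the alternative route, rose by 0.16 ± 0.05 (0.0415). Akr1d1, the ring reductase, fell on its dimmer probe set by 0.48 ± 0.11 (0.0110), while the brighter one was at -0.03 ± 0.08 (0.866). The 2 probe sets thus differ in the size of the change, and a fall of the gene rests on the dimmer one. The count was 5 without replicate 1, 3 without replicate 2 and 1 without replicate 3, the last being Cyp7a1. Without the block 0 of the 11 passed this comparison, with adjusted p from 0.120 to 0.982. Over all probe sets fewer passed too in each of these reduced fits and without the block. The lower member counts are therefore no result about the members.

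The pairs of arrays gave a partly different set: Slc27a5 was lower in every pair but did not pass (adjusted p = 0.0771), and the dimmer Akr1d1 probe set passed but was lower in 5 of 6 pairs. Cyp7a1, Nr1h4, Cyp39a1, Baat and Slc27a5 were lower at 6 h in all 6 pairs of the same number and treatment, as were 10.9% of all probe sets. Cyp27a1 was higher in all 6, as were 9.51%. Cyp8b1 split: in control cells its difference was -0.05, 0.58 and -0.05 log2 in replicates 1 to 3, and it averaged 0.05 ± 0.11 log2 over treated and control cells. Nr1h4 in control cells was 8.86, 8.01 and 7.43 at 6 h, against 9.03, 8.46 and 8.39 at 3 h. The ranges of Nr1h4 overlap because replicate 1 hardly moved. The repressor Nr0b2 was 5.53, 4.77 and 3.94 in control cells at 6 h, against 5.57, 4.51 and 4.72 at 3 h, with no shared direction. Cyp7b1 lay between 2.95 and 3.44 in all arrays, below the 25th percentile of each array, where a change may not be seen.

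**Figure D3:**
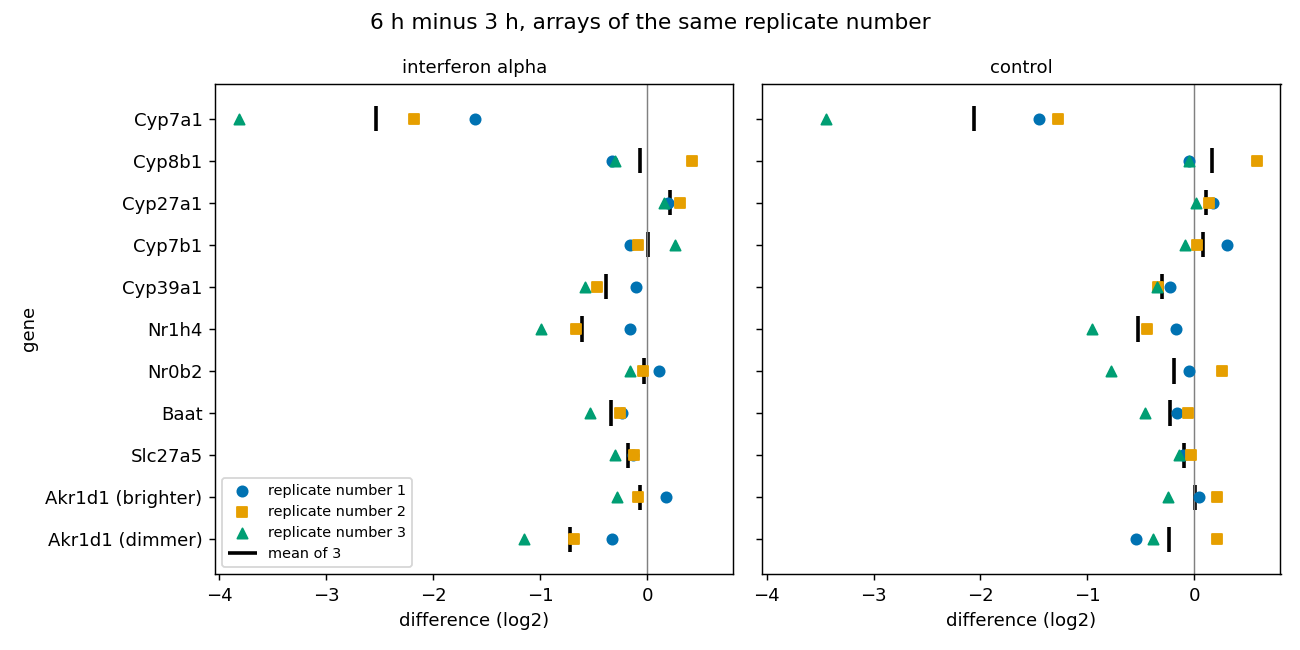
Difference between 6 h and 3 h (log2, horizontal axis) for each member in interferon-treated cells (left) and control cells (right); points are the 3 replicate numbers and black bars their means. Cyp7a1 stands apart at -1.28 to -3.82, and Nr1h4, Cyp39a1, Baat and Slc27a5 lie below 0 in all 6 pairs.

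**Figure D4:**
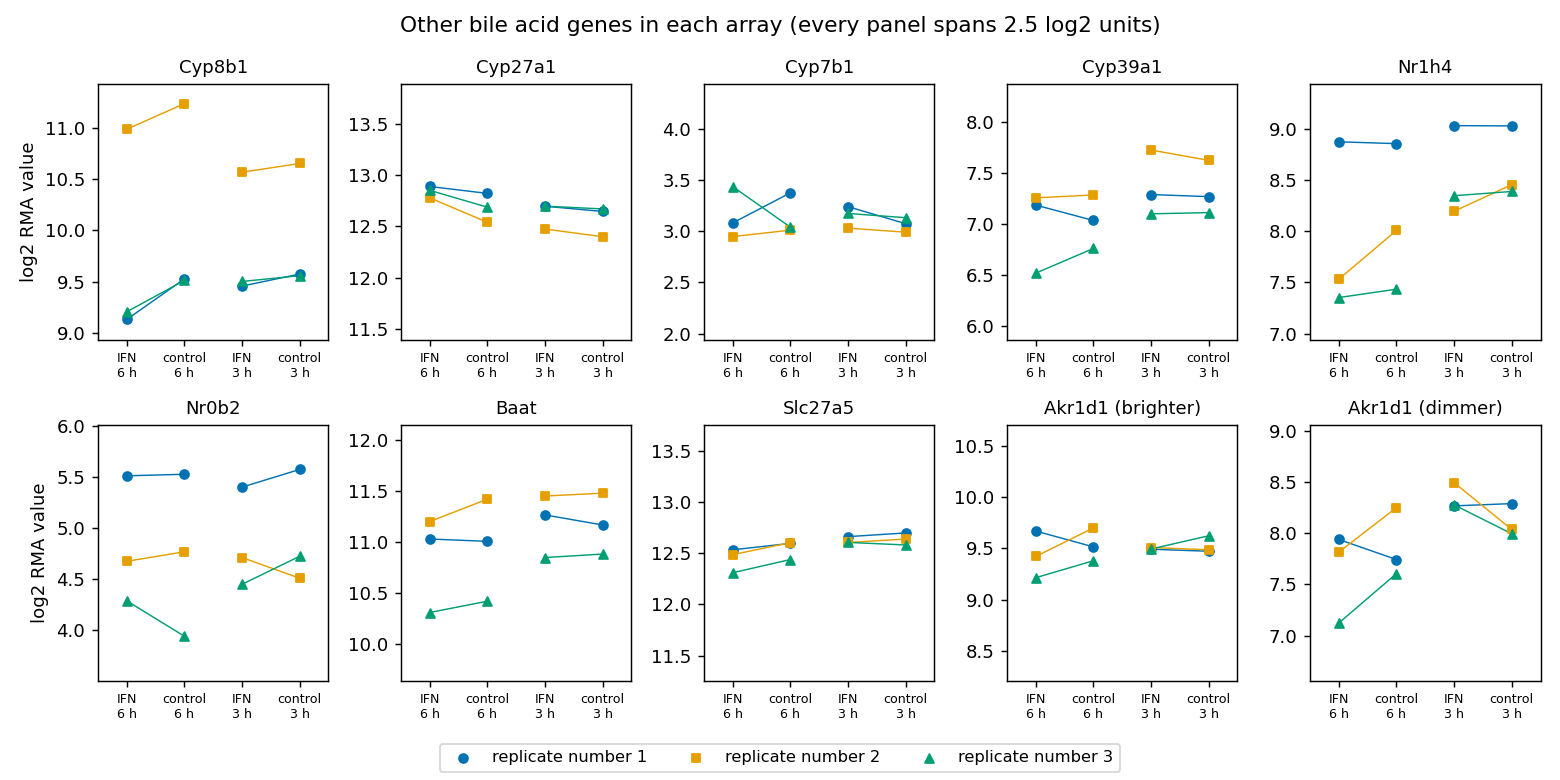
Levels of the other 9 members (log2 RMA value, vertical axis) in each array by group, in panels that all span 2.5 log2 units; lines join interferon alpha (IFN) and control arrays of the same replicate number and time. Replicate 2 stands above the others in Cyp8b1 and replicate 1 in Nr1h4 and Nr0b2, while Slc27a5 hardly varies.

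No member passed the test for interferon alpha. At 6 h Cyp7a1 averaged 7.77 ± 3.15 in treated cells and 8.41 ± 3.24 in control cells (SD, n = 3 each). Replicates 1 to 3 differed by -0.16, -1.24 and -0.52 log2, on average 1.56 times lower. The fit gave -0.64 ± 1.88 log2 SE (adjusted p = 1.00), and -0.64 ± 0.43 with the block (0.753, 95% interval -1.58 to 0.31), an interval that holds both falls and rises. When each time was blocked separately, the SE was 0.17, the unadjusted 95% interval -1.03 to -0.25 and the adjusted p 0.180. That SE pools the spread of both times. The 3 differences had an SD of 0.55 log2 at 6 h and 0.16 at 3 h, so the SE can understate the error at 6 h. At 3 h the differences were -0.0015, -0.33 and -0.15 log2, and the blocked fit gave -0.16 ± 0.43 (0.970). The change between the times, -0.48 ± 0.61 log2 with the block, did not pass either (0.999).

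Cyp8b1, the cholic acid enzyme, was lower with interferon alpha in each replicate at both times, by little. At 6 h it was 9.13, 10.99 and 9.20 in treated cells, against 9.52, 11.24 and 9.51 in control cells. At 3 h it was 9.46, 10.57 and 9.50 in treated cells, against 9.57, 10.65 and 9.56 in control cells. The groups overlap, because replicate 2 stands above the others, yet the differences of the 3 pairs at 6 h were close, at -0.40, -0.25 and -0.31 log2. The mean of -0.32 had an SE of 0.60 without a block (adjusted p = 1.00), 0.15 with it (0.637) and 0.06 when each time was blocked separately (0.0620). Cyp27a1, the side-chain oxidase, went the other way in each pair, with 12.89, 12.78 and 12.85 at 6 h in treated cells, against 12.82, 12.54 and 12.69 in control cells. Its mean difference at 6 h was 0.16 ± 0.07 log2 with the block (0.605).

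Among the members, Cyp7a1 and Cyp8b1 were lower with interferon alpha in all 6 pairs of the same number and time, as were 6.23% of all probe sets, and Cyp27a1 was higher in all 6, as were 3.32%. One of the Cyp7a1 pairs, replicate 1 at 3 h, differed by -0.0015 log2 only. At 6 h, 0 of the 11 member probe sets passed, against 0.387% of all probe sets without a block, 1.10% with it and 1.10% when each time was blocked separately. The count was 0 of 11 at 3 h too, where 0.00644% of all passed without and 0.0966% with the block. The 5 interferon check genes had a median rise of 2.68 log2 at 3 h. Of these, 0 passed without the block and 2 with it. Averaged over both times the member count was 0 of 11 (0.435% of all without and 1.10% with the block). For the difference between the times it was 0 of 11, as over all probe sets (0%). Before adjustment, limma's p was under 0.05 for 0 members in these comparisons without the block, and with it for Cyp27a1 at 6 h alone. When each time was blocked separately, it was under 0.05 for 3 members at 6 h and 3 averaged over both times (Cyp7a1, Cyp8b1 and Cyp27a1 in each), and for Cyp8b1 and the dimmer Akr1d1 probe set in the difference between the times. Over all 31042 probe sets, the counts at 6 h were 1145 without the block, 2539 with it and 3670 when each time was blocked separately. Averaged over both times they were 1392, 3339 and 4700, and for the difference between the times 673, 1466 and 2094. Against so small a share of calls after adjustment, 0 of 11 is no result about the members. The remaining members were at -0.24 to 0.08 log2 at 6 h, with Slc27a5, the acyl-CoA synthetase, at -0.10 ± 0.07 SE with the block (0.749). The 2 probe sets of Akr1d1 were at -0.10 and -0.24 at 6 h, and at -0.03 and 0.24 at 3 h.

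**Figure D5:**
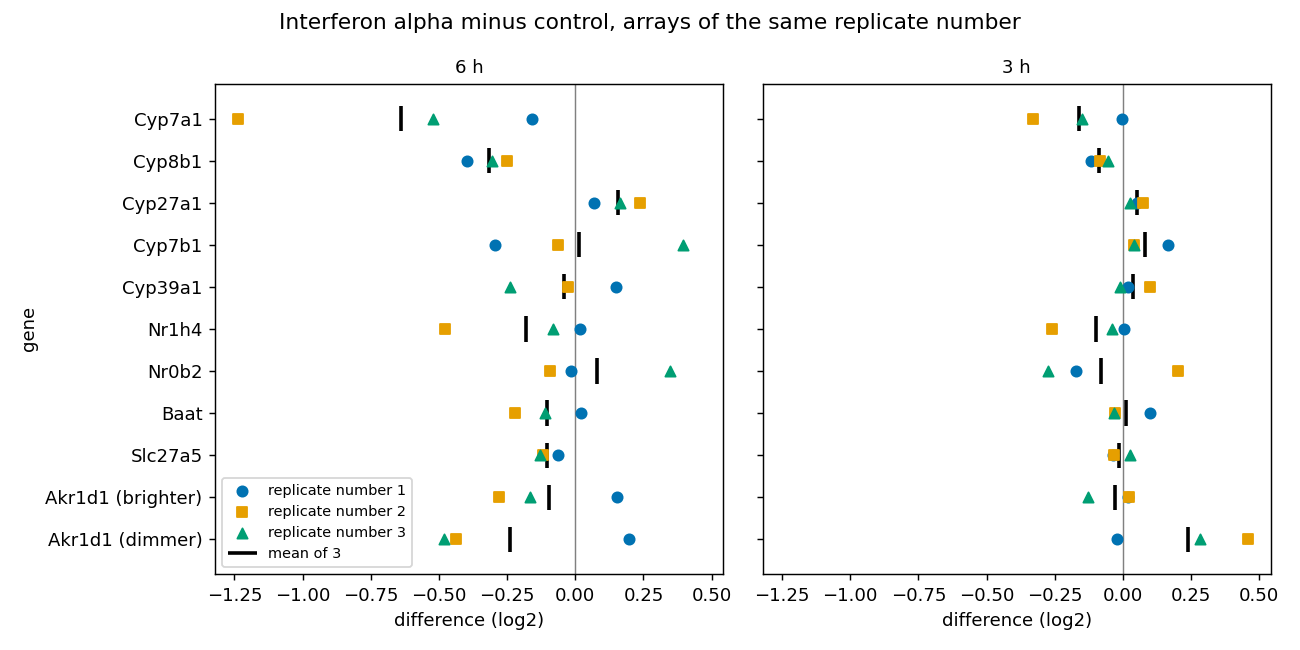
Interferon alpha minus control (log2, horizontal axis) for each member at 6 h (left) and 3 h (right); points are the 3 replicate numbers and black bars their means. At 6 h the 3 points of Cyp8b1 lie between -0.40 and -0.25 and those of Cyp7a1 between -1.24 and -0.16, while the points of most other members lie on both sides of 0.

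Beyond the 10 members, 51 further genes of bile acid synthesis, transport and regulation were measured. Of these, 1 passed for interferon alpha at 6 h with the block and 0 without it. Over all probe sets 1.10% passed there with the block and 0.387% without it. Stard5, a START-domain lipid-binding protein, was 8.26, 8.93 and 7.79 in treated cells at 6 h, against 7.49, 7.87 and 6.84 in control cells. It was higher with interferon alpha in all 3 pairs at 6 h and also at 3 h, although the groups overlap. Stard5 rose by 0.93 ± 0.10 log2 at 6 h with the block (adjusted p = 0.000605, and 0.00616 to 0.0430 without any 1 replicate number), while the fit without a block gave an SE of 0.33 and an adjusted p of 1.00. When each time was blocked separately, the adjusted p at 6 h was 0.00311. Averaged over both times with the block it was 0.00116. At 3 h Stard5 was 0.23 ± 0.10 log2 higher with the block (0.716), and the difference between the times did not pass (0.514). In control cells it fell by 0.76 ± 0.10 log2 between 3 h and 6 h with the block (0.00204); this comparison shares the control 6 h arrays with the treated one.

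Between 3 h and 6 h of control culture more of these 51 genes passed, again with the block alone, and 0 passed without it. Over all probe sets 8.15% passed in this comparison with the block, 1496 lower and 1033 higher. Of 16 further synthesis genes 4 fell and 0 rose, with a median change of -0.06 log2 against 0.01 for all probe sets. They were Stard5, the peroxisomal transporter Abcd3 (-0.70 ± 0.08 log2, 0.00144), the side-chain oxidase Acox2 (-0.51 ± 0.09, 0.00602) and the racemase Amacr (-0.29 ± 0.07, 0.0350). The brightest of this group did not pass, with the mitochondrial ferredoxin Fdx1 at -0.23 ± 0.08 (0.118) and the sterol carrier Scp2 at -0.06 ± 0.07 (0.661). Of 14 transporters 3 rose and 1 fell, with a median of -0.03. The rising ones carry their substrates out of the hepatocyte: Abcc2 (0.65 ± 0.08, 0.00155) and the phospholipid floppase Abcb4 (0.64 ± 0.08, 0.00155) into bile, and Abcc3 (0.39 ± 0.08, 0.0121) into blood. The uptake carrier Slco1b2 fell by 0.66 ± 0.08 (0.00151). The main bile acid carriers, the uptake transporter Slc10a1 at -0.09 ± 0.10 (0.686) and the export pump Abcb11 at 0.13 ± 0.07 (0.353), did not pass.

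Of 21 regulators 3 fell and 1 rose, with a median of -0.09. The oxysterol receptor Nr1h3 (LXR alpha), which drives Cyp7a1 in rodents, fell by 0.65 ± 0.09 log2 (adjusted p = 0.00207). Onecut1 fell by 0.75 ± 0.18 (0.0290) and Nr2f2 by 0.52 ± 0.14 (0.0479), both hepatic transcription factors. Foxa2, a forkhead factor of the liver, rose by 0.81 ± 0.16 (0.0120). Hnf4a, which also drives Cyp7a1, was at -0.12 ± 0.09 (0.510), and Jun, among the brightest of the list, at 0.03 ± 0.13 (0.937). With 1 replicate number left out in turn, Stard5, Abcd3, Abcc2, Abcb4 and Slco1b2 passed each time, while Acox2, Amacr, Abcc3, Nr1h3, Foxa2, Nr2f2 and Onecut1 missed the threshold at least once (adjusted p up to 0.251). No marker of hepatocytes or of other cell types was called between the times with the block.

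By likeness over the 12 arrays, the genes closest to Cyp7a1 among 13982 named ones were Flywch1, Fah, Serpina3l, Ndufb4 and Hao1, with Pearson r from 0.984 to 0.989 and Spearman rho from 0.916 to 0.986. Without the 2 arrays farthest from the median of Cyp7a1, both of replicate 3 at 6 h, r was 0.944 to 0.981. With the group means taken out they were Serpina3l, Fah, Rnf125, Pet100 and Cyp2c13, at r from 0.993 to 0.997, over arrays that differ within a group only in replicate number. Their own ranges, from 0.40 log2 in Serpina3l to 2.41 in Rnf125, were all narrower than that of Cyp7a1. The arrays share 3 replicate numbers and the genes were picked for the highest r, so these figures are a description. Among the members Baat came closest to Cyp7a1, with r = 0.942 and 0.794 without those 2 arrays. The figures were 0.878 and 0.661 for Cyp39a1, 0.871 and 0.578 for Slc27a5, 0.735 and 0.375 for Nr1h4, and 0.678 and 0.369 for Nr0b2. Those of the brighter Akr1d1 probe set were 0.579 and -0.189, of Cyp8b1 0.401 and 0.202, and of Cyp7b1 -0.366 and -0.130. Cyp27a1 ran against Cyp7a1, at -0.47 with and without those arrays.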

How the data were processed

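Total RNA of 12 hepatocyte samples, extracted with Trizol and RNeasy columns per the labels' protocols, was hybridised to Affymetrix arrays. What the authors deposited is 1 log2 value for each probe set and array. The submitters' processing notes name RMA, the affy package and R 2.10.0. RMA gives every array the same distribution, which would hide a change common to most transcripts. For the probe set definition file, the sources used here name none.

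The 57 control probe sets were left out. Gene names came from the platform annotation, and the Entrez identifiers of all 11 member probe sets matched RefSeq genes of GRCr8 under the same symbol. A gene's main probe set is the one with the highest mean. Groups were compared in R 4.3.3 with limma 3.58.1 in 1 fit of 12 arrays (8 residual degrees of freedom), two-sided, with Benjamini-Hochberg adjustment over 31042 probe sets and calls at 0.05. Errors are SE of the fit unless marked SD. The code was tested on simulated data. The number of arrays limits the precision.

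The replicate numbers, taken from the titles, pair the arrays. Deviations from group means correlated at 0.651 to 0.829 for the same number and time and at 0.479 to 0.736 for the same number at the other time, against -0.562 to -0.0747 for other numbers in other groups. Deviations within a group cancel out, so the negative values follow in part from the positive ones. Because of the positive values, the fit with the number as a block is given beside the one without it. The blocked fit does not pair treated and control arrays within a time, so its SE can be too small for a change between the times.

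The members and lists were chosen with earlier results of these data known. Named genes are all members, the 5 interferon check genes, the pathway list genes called in any of 5 comparisons with or without the block, the 2 brightest of each pathway list, and the 5 genes most like Cyp7a1 by each measure. Mx2 and the cell type markers given by name (Alb, Hnf4a, Cd14, Epcam, Krt7, Krt19 and Cd68) were picked after their values were seen. Promoters were searched with a fixed-letter match. Alternatives were limma-trend, a filter on dim probe sets, median centring, only the arrays compared, blocks and leaving out arrays.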

Additional observations from a re-analysis of the deposited data

How the results depend on the processing

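With the replicate number as a block, 1 of 11 member probe sets (Cyp7a1) passed between 6 h and 3 h in control cells, against 0 without it; in the 4 comparisons of interferon alpha the block changed no call of a member. With the block and 1 replicate number left out the count was 0 to 1. Averaged over treated and control cells it was 6 with the block and 0 without it, and with the block it was 5, 3 and 1 without replicates 1, 2 and 3. Over all probe sets the block moved the calls to 30 from 2 for interferon alpha at 3 h, to 340 from 120 at 6 h, to 341 from 135 for both times averaged, and to 2529 from 59 for 6 h against 3 h in control cells. Those between 6 h and 3 h averaged over treatments were 5724 with the block. They were fewer without the block, and fewer with it when any 1 replicate number was left out.

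Leaving out 1 array in turn without a block turned the sign of several differences that had not passed. For interferon alpha, Cyp7a1 ran between -2.51 and 1.17 log2 at 6 h, -1.33 and 1.01 at 3 h, and -2.35 and 1.33 for the difference between the times, each end being set by an array of replicate 3. Cyp8b1 ran between -0.92 and 0.26 at 6 h and -0.45 and 0.28 at 3 h, the ends being set by arrays of replicate 2. For 6 h against 3 h in control cells, Baat ran between -0.46 and 0.037, Scp2 between -0.18 and 0.048, Slc10a1 between -0.23 and 0.036, and Jun between -0.044 and 0.15. With the block, Jun was at -0.11 without replicate 2. Averaged over treatments, Hnf4a was at 0.0037 with and without the block, 0.060 without replicate 1 and 0.018 without replicate 2, and Jun was at -0.015 without replicate 1 and -0.12 without replicate 2. The cause was not tested. limma-trend, the filter on dim probe sets, median centring and the 6-array fits called 0 members.

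The precision is limited by 3 arrays a group: the SE for Cyp7a1 was 1.88 log2 without the block and 0.43 with it. The levels of Cyp7b1 lie below the 25th percentile of the arrays, and the mean of Nr0b2 and the values of Cyp7a1 in replicate 3 at 6 h (4.15 and 4.68) between it and the median, which limits folds there.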
